A study of Penicillium oxalicum with 6 samples.

Results

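The cellulase genes described here are a set of 7 genes of Penicillium oxalicum, of 9727 genes in the deposited tables. They were chosen by gene ID, and the product names come with that list: the cellobiohydrolase Cel7A-2 (POX05587), the endoglucanases Cel5B (POX01166), Cel7B (POX05571), Cel45A (POX05570) and Cel12A (POX07535), and 2 further Cel5 genes (POX06147 and POX01896). The deposited tables hold IDs and expression values, so the products were not checked against sequence here. All 7 genes were found in every library and passed the filter on low values.

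The mutant ΔPOX01387 lacks the gene POX01387 and was made in the parental strain Δku70. The parental strain lacks ku70, whose product is needed to rejoin broken DNA without a template; in its absence introduced DNA replaces its target gene more reliably. Both strains therefore carry the ku70 deletion, and no strain with intact ku70 was compared. Each strain spent 24 h at 28 °C in liquid medium with 1% glucose, after which some 1 g of mycelium was transferred to 2% Avicel, a form of microcrystalline cellulose, and collected 24 h later. There were 3 libraries of each strain, and the labels do not say whether they came from separate cultures, so the spread behind the p-values may be technical in part. Only 1 time point on Avicel was sampled, and no library from glucose was part of the comparison.

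Cellulose is a long chain of glucose units packed into crystals. Endoglucanases cut the chain internally and make new ends, cellobiohydrolases move along the chain from an end and release the disaccharide cellobiose, and β-glucosidases split cellobiose into glucose. Filamentous fungi such as Penicillium secrete these enzymes together, and their genes are typically induced by cellulose and repressed by glucose. Names such as Cel7 and Cel5 give the glycoside hydrolase family of the enzyme, so Cel7A-2 and Cel7B belong to one family and act differently on the chain. No β-glucosidase or other gene of cellulose breakdown is described, because no source used here pairs another ID with such a product.

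The deleted gene was examined first. POX01387 was listed at 0.02, 0 and 0 FPKM in ΔPOX01387 replicates 1, 2 and 3, against 9.4, 6.89 and 6.14 FPKM in the same replicates of Δku70. FPKM expresses fragments relative to transcript length and to all mapped fragments, so levels can be compared between genes. Its level matched the labelled strain of all 6 libraries. One parental library stood apart for the cellulase genes: Δku70 replicate 1 had the lowest value of all 6 libraries for 7 of 7 of them. Results are therefore given with and without it.

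All 7 cellulase genes had a higher mean level in ΔPOX01387 than in Δku70, and the rise passed the test for 2 of them, Cel7A-2 and Cel7B. Their fitted folds were 3.27 and 2.51, and 3.6% of all genes tested were called higher with a change of at least 2-fold. The other 5 genes had folds between 1.51 and 3.61 and missed the threshold of 0.05 on the adjusted p. Of all 8925 genes tested, 15.3% were called higher in the mutant, 32.6% were called lower and 47.9% were called in either direction (limma on log2(FPKM + 1), two-sided, Benjamini-Hochberg adjustment over all tested genes). None of the 7 cellulase genes was called lower. The median log2 fold change was 1.33 over the 7 genes and -0.15 over all genes tested. Mycelium was sampled in bulk, so more hyphae expressing a gene and more transcript per hypha cannot be told apart.

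**Figure D1:**
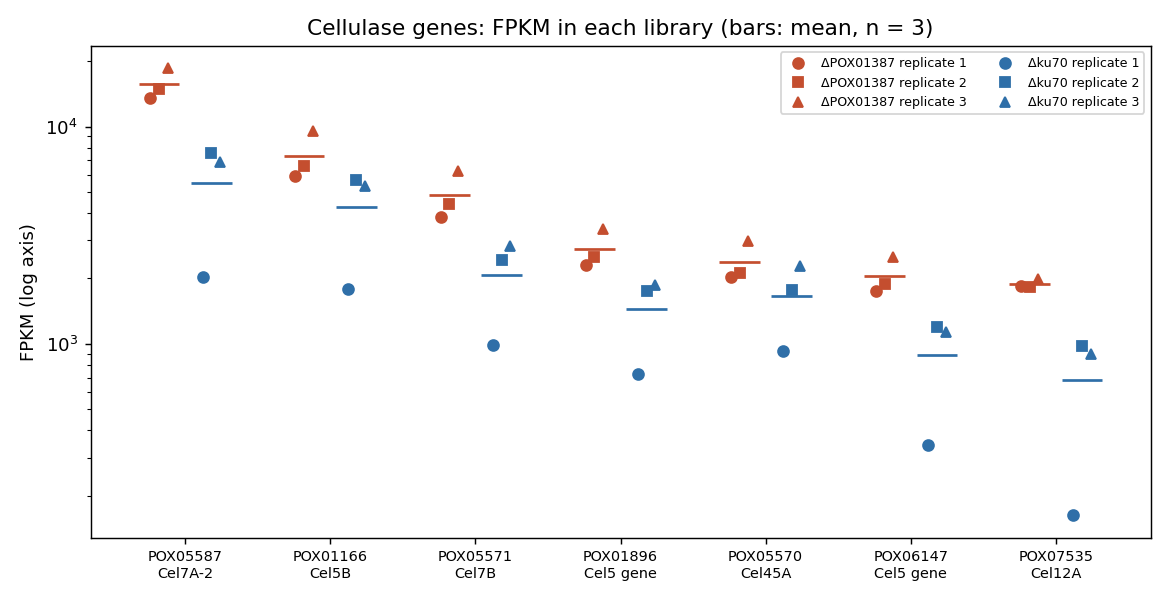
FPKM of the 7 cellulase genes in each library on a log axis, with ΔPOX01387 left of Δku70, points for the 3 replicates and bars for the mean. The ΔPOX01387 libraries lie above the Δku70 libraries for 6 genes and overlap them for Cel45A, and Δku70 replicate 1 is the lowest point of every gene.

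Cel7A-2, the cellobiohydrolase of the set, was the most abundant of the 7 transcripts in each of the 6 libraries. It had 13590.1, 14819 and 18531 FPKM in ΔPOX01387 replicates 1, 2 and 3, against 2039.9, 7589 and 6872 FPKM in Δku70 replicates 1, 2 and 3. The strains did not overlap, and Δku70 replicate 1 lay far below the other parental libraries. The log2 fold change was 1.71 with a standard error of 0.51 (adjusted p = 0.032, limma). Among all 9727 genes Cel7A-2 ranked between 4 and 5 by FPKM in the mutant libraries and between 6 and 55 in the parental libraries. It alone took between 1.301% and 1.81% of the summed FPKM of a mutant library, against between 0.200% and 0.749% of a parental library.

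Cel5B, an endoglucanase, was second to Cel7A-2 in every library. Its levels were 5935, 6576 and 9557 FPKM in the ΔPOX01387 replicates and 1782, 5650.45 and 5308 FPKM in the Δku70 replicates. The strains did not overlap, but the lowest mutant library lay close to the highest parental one. The log2 fold change was 0.93 with a standard error of 0.47 (adjusted p = 0.14, limma), with a 95% confidence interval from -0.20 to 2.06.

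Cel7B, an endoglucanase of the same family as Cel7A-2, was the other gene that passed the test. It had 3847, 4417 and 6264 FPKM in the ΔPOX01387 replicates, against 990.4, 2429 and 2806 FPKM in the Δku70 replicates. All mutant libraries were above all parental libraries. The log2 fold change was 1.33 with a standard error of 0.42 (adjusted p = 0.038, limma).

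Cel45A, an endoglucanase whose ID directly precedes that of Cel7B, had the smallest difference of the set. It had 2036, 2124 and 2959.6 FPKM in the ΔPOX01387 replicates and 925, 1764 and 2276 FPKM in the Δku70 replicates. It was the only one of the 7 genes whose strains overlapped, since mutant replicates 1 and 2 lay below parental replicate 3. The log2 fold change was 0.59 with a standard error of 0.35 (adjusted p = 0.19, limma), with a 95% confidence interval from -0.23 to 1.42.

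Cel12A, an endoglucanase, had the lowest mean level of the set in either strain and the largest fitted fold. Its levels were 1856, 1828 and 1999 FPKM in the ΔPOX01387 replicates, against 163, 979 and 898 FPKM in the Δku70 replicates. The mutant libraries were close together, with a coefficient of variation of 4.84%, while the parental libraries varied by 66.2%. The log2 fold change was 1.85 with a standard error of 0.66 (adjusted p = 0.056, limma), and the strains did not overlap.

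The further Cel5 genes lay between Cel45A and Cel12A in the size of the difference. POX06147 had 1749, 1895 and 2523 FPKM in the ΔPOX01387 replicates and 343, 1202 and 1134 FPKM in the Δku70 replicates, a log2 fold change of 1.39 with a standard error of 0.48 (adjusted p = 0.053, limma). POX01896 had 2299.96, 2507 and 3389 FPKM in the ΔPOX01387 replicates and 727, 1757 and 1862 FPKM in the Δku70 replicates, a log2 fold change of 1.01 with a standard error of 0.38 (adjusted p = 0.066, limma). Neither overlapped between the strains, and both missed the threshold.

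Libraries of the strains did not overlap for 6 of the 7 genes, each higher in the mutant; over all genes tested, 19.3% did not overlap with the mutant higher. At an unadjusted p under 0.05, 5 of the 7 genes differed (limma, two-sided), and so did 56.4% of all genes tested. For comparison by level, 101 other genes had a mean over the 6 libraries at or above the 1287 FPKM of Cel12A, and 21.8% of them were called higher. The median log2 fold change of those 101 genes was 0.10 and their median standard error was 0.19, against standard errors from 0.35 for Cel45A to 0.66 for Cel12A.

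The parental libraries were unevenly spread. Replicates 2 and 3 of Δku70 differed from each other by at most 0.37 on the log2 scale for any of the 7 genes, the largest gap being that of Cel45A. Replicate 1 lay below their mean by a log2 difference between -2.52 for Cel12A and -1.11 for Cel45A, with -1.82 for Cel7A-2 and a median of -1.62. For 6 of the 7 genes it was at least 2-fold below both other parental libraries, which held for 1.78% of all genes tested; Cel45A missed that limit. Over all genes the same difference had a median of 0.04, with 5% of genes below -0.58. Δku70 replicate 1 was the lowest of the 6 libraries for 15.2% of all genes. What set this library apart was not tested.

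**Figure D2:**
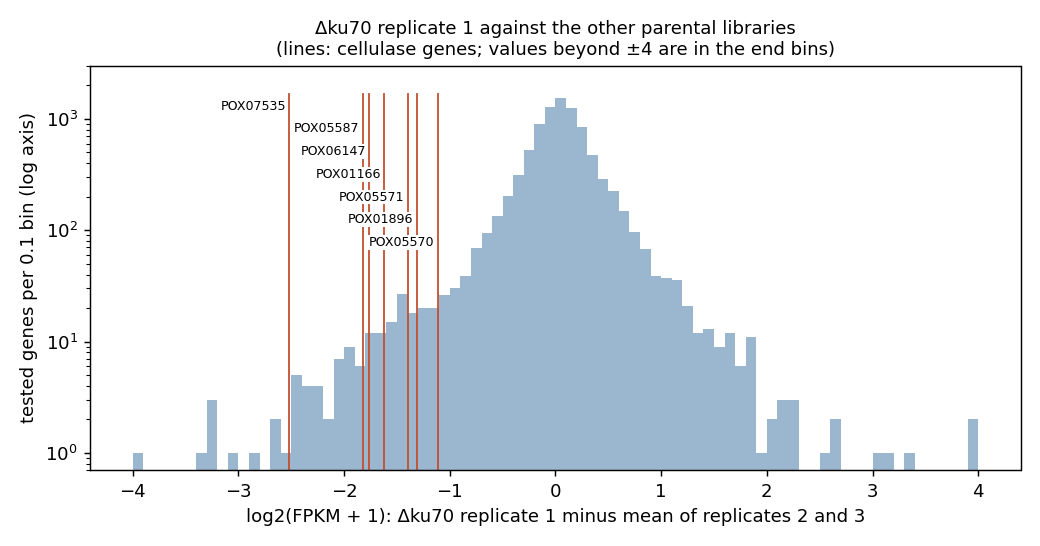
Distribution over 8925 tested genes of the log2(FPKM + 1) value in Δku70 replicate 1 minus the mean of replicates 2 and 3, with the number of genes on a log axis and vertical lines for the 7 cellulase genes. All 7 lines lie left of -1, between -2.52 and -1.11, while the median gene is at 0.04.

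Without Δku70 replicate 1 the differences and their standard errors were smaller. That library was singled out by its values for these same genes, and its removal takes out most of the parental spread. The smaller standard errors and p-values of this fit are therefore not separate evidence. The median log2 fold change of the 7 genes was 0.80, against 1.33 with all libraries, and 4 genes were called higher in place of 2. Of all genes tested in that fit, 14.4% were called higher. Cel12A then had a log2 fold change of 1.01 with a standard error of 0.11 (adjusted p = 0.0020, limma) and Cel7A-2 had 1.10 with a standard error of 0.20 (adjusted p = 0.0081, limma). POX06147 had 0.80 with a standard error of 0.18 (adjusted p = 0.017, limma) and Cel7B had 0.86 with a standard error of 0.23 (adjusted p = 0.029, limma). The others stayed beyond the threshold, with 0.57 for POX01896 (limma, adjusted p = 0.054), 0.39 for Cel5B (limma, adjusted p = 0.21) and 0.22 for Cel45A (limma, adjusted p = 0.43).

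**Figure D3:**
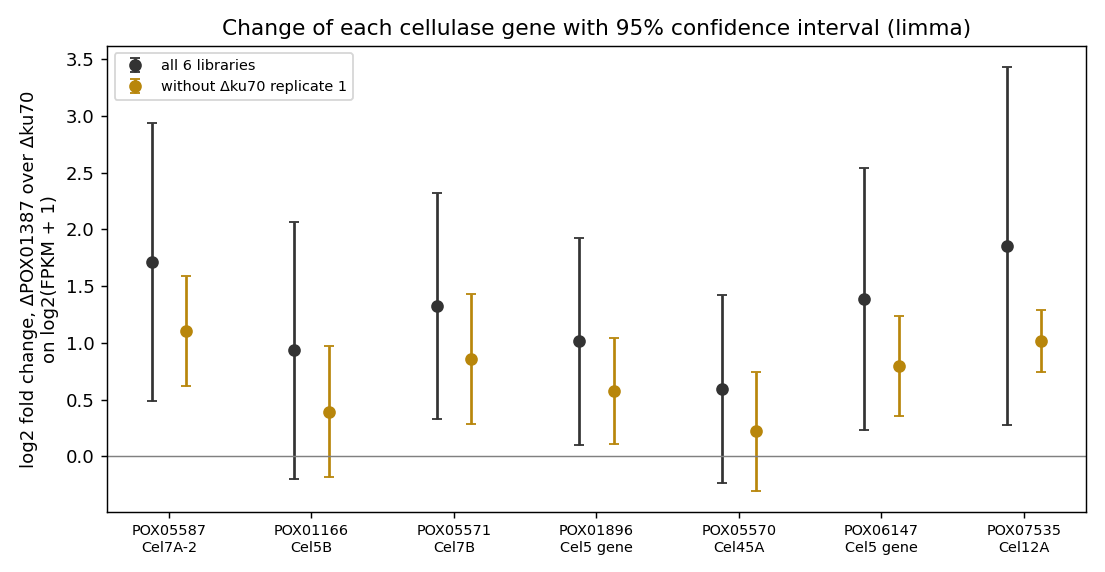
Log2 fold change of each cellulase gene, ΔPOX01387 over Δku70, on the log2(FPKM + 1) scale with its 95% confidence interval from limma, unadjusted for the number of genes, for all 6 libraries and without Δku70 replicate 1. Every point is above 0, and the points without that library are lower, between 0.22 and 1.10, with shorter intervals.

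The number of calls changed with the libraries included and with scaling. Leaving out any 1 of the 3 ΔPOX01387 libraries left 0 of the 7 genes called (limma, adjusted p of Cel7A-2 between 0.074 and 0.087). Of all genes tested, 9.29%, 10% and 15.1% were called higher without replicates 1, 2 and 3. An unadjusted p under 0.05 was reached by 3 of the 7 genes without replicate 1, by 2 without replicate 2 and by 1 without replicate 3, and by 47.4%, 48.0% and 54.2% of all genes tested in those fits. The log2 fold change of Cel7A-2 was then 1.81, 1.74 and 1.58, against 1.71 with all libraries, so its size changed little while its standard error was larger, between 0.62 and 0.63. Leaving out Δku70 replicate 2 gave 4 calls, as did leaving out Δku70 replicate 1, and leaving out Δku70 replicate 3 gave 2. Of all genes tested, 14.4%, 14.2% and 9.74% were called higher without Δku70 replicates 1, 2 and 3. With median-of-ratios scaling, which moved the median log2 fold change of all genes to 0.01 from -0.15, 5 genes were called higher, against 23.7% of all genes tested, and decreases were 48.2% of all calls in place of 68.0%.

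The 7 genes together took 2.998%, 3.26% and 4.43% of the summed FPKM in ΔPOX01387 replicates 1, 2 and 3, against 0.684%, 2.11% and 2.11% in Δku70 replicates 1, 2 and 3. The means were 3.56% ± 0.76 in ΔPOX01387 and 1.63% ± 0.82 in Δku70 (SD, n = 3 each). Their summed FPKM was 2.24-fold higher in the mutant, or 1.74-fold without Δku70 replicate 1. No test is given for these sums, because the genes were chosen with earlier results of these data known. ΔPOX01387 replicate 3 was the highest library for 7 of 7 genes, which held for 9.36% of all genes tested. The 7 genes all ranked among the 100 most abundant in each mutant library, against 2, 5 and 5 of them in Δku70 replicates 1, 2 and 3.

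The order of the transcripts within a library was nearly the same throughout. Cel7A-2, Cel5B and Cel7B came in that order in 6 of 6 libraries. In Δku70 they were followed in every library by Cel45A, POX01896, POX06147 and Cel12A. In ΔPOX01387 POX01896 stood above Cel45A in every library, and Cel12A and POX06147 changed places between libraries. Across the 3 mutant libraries the ranges of neighbours in this order were separate only between Cel7A-2 and Cel5B and between Cel7B and POX01896. Across the 3 parental libraries the ranges of all neighbours overlapped, so that the parental order is seen within libraries and not between them.

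Levels relative to Cel7A-2 were compared within each library, which cancels any factor shared by all genes of a library. Cel5B stood at 43.7%, 44.4% and 51.6% of the Cel7A-2 level in the ΔPOX01387 replicates, against 87.4%, 74.5% and 77.2% in the Δku70 replicates. Cel45A stood at 15.0%, 14.3% and 16.0% in the ΔPOX01387 replicates, against 45.4%, 23.2% and 33.1% in the Δku70 replicates. For both genes the strains did not overlap, and the level relative to Cel7A-2 was lower in the mutant.

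POX01896 stood at between 16.9% and 18.3% of Cel7A-2 in ΔPOX01387, against between 23.2% and 35.6% in Δku70. POX06147 stood at between 12.8% and 13.6% in ΔPOX01387, against between 15.8% and 16.8% in Δku70, a narrow but separate pair of ranges. The ratios of Cel7B and Cel12A to Cel7A-2 overlapped between the strains. For Cel12A the range was from 10.8% to 13.7% in ΔPOX01387 and from 7.97% to 13.1% in Δku70. In all, 4 of 6 ratios were lower in the mutant without overlap, and each of these 4 had a two-sided exact permutation p = 0.10, the smallest that 3 libraries against 3 allow, so none could pass a threshold of 0.05. The ratios share Cel7A-2 as their denominator and are not independent. They also restate the fold changes given above. Only Cel12A had a larger fitted fold than Cel7A-2, so lower ratios for the other genes follow from the choice of reference. The log2 fold change of Cel7A-2 was 1.71, against a median of -0.15 over all genes tested, and the share of all genes with a lower ratio was not computed.

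**Figure D4:**
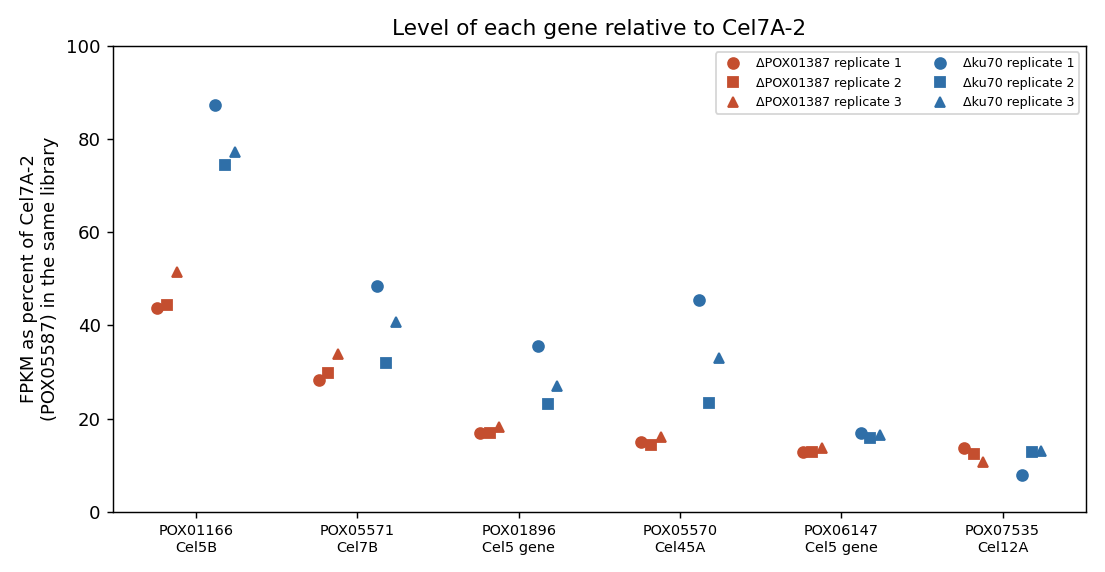
FPKM of each of the other 6 genes as a percentage of the Cel7A-2 level in the same library, with ΔPOX01387 left of Δku70 and 1 point per replicate. Cel5B, POX01896, Cel45A and POX06147 are lower relative to Cel7A-2 in the mutant without overlap, while Cel7B and Cel12A overlap.

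The consecutively numbered endoglucanase genes POX05570 and POX05571 were also set against each other. The ratio of Cel45A to Cel7B was 0.529, 0.481 and 0.472 in ΔPOX01387 replicates 1, 2 and 3, against 0.934, 0.726 and 0.811 in Δku70 replicates 1, 2 and 3. The ratio was lower in every mutant library than in every parental one. The pair was picked once its values were known. As a share of the summed FPKM of the 7 genes, Cel7A-2 held 42.6% ± 1.4 in ΔPOX01387 and 32.4% ± 3.1 in Δku70, and Cel45A held 6.42% ± 0.18 in ΔPOX01387 and 10.8% ± 2.5 in Δku70 (SD, n = 3 each). The share of Cel7B was close between the strains, at 13.0% ± 0.8 in ΔPOX01387 and 12.9% ± 1.4 in Δku70 (SD, n = 3 each).

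Genes with ID numbers next to the cellulase genes went in both directions. The ID order is used as an order only, since positions in the genome were not used here. Within 5 numbers of a cellulase gene there were 56 other tested genes, of which 50.0% were called, 10 higher and 18 lower in ΔPOX01387, a share close to the 47.9% of all genes tested. Their median log2 fold change was -0.10. Among the nearest 2 numbers on either side, 12 of 24 genes were called, 4 higher and 8 lower, again near the share over all genes, so these counts show nothing particular to the neighbours.

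Beside Cel7A-2, POX05585 rose to 58.0 ± 2.5 FPKM in ΔPOX01387, against 8.37 ± 0.55 FPKM in Δku70 (SD, n = 3 each), with a log2 fold change of 2.65 with a standard error of 0.08 (adjusted p = 3.8e-05, limma). POX05586, which lies between them in number, had a log2 fold change of 0.14 and was not called, nor were POX05588 and POX05589 on the other side. Beside POX06147, 2 strongly expressed genes fell. POX06146 fell to 373 ± 50.3 FPKM in ΔPOX01387, against 1147 ± 163 FPKM in Δku70 (SD, n = 3 each; log2 fold change -1.62), and POX06145 to 1442 ± 160.3 FPKM in ΔPOX01387, against 2349.7 ± 319 FPKM in Δku70 (SD, n = 3 each; log2 fold change -0.70). Their adjusted p-values were 7.1e-04 and 0.012 (limma).

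Among the nearest 2 numbers on either side of Cel5B, the genes called were all lower in ΔPOX01387. POX01165 had a log2 fold change of 2.26 and was not called (limma, adjusted p = 0.078), POX01164 and POX01167 were called with -0.84 and -0.35, and POX01168 was called with -1.81. The fall continued in POX01169, POX01170 and POX01171, called with -3.93, -2.80 and -3.48. On the other side POX01163 was called with -0.83 and POX01161 with 0.92. Beyond the nearest 2 numbers, genes are named for Cel5B only. Called genes, some higher and some lower, also lay there near the other cellulase genes. POX07534 beside Cel12A was called with 0.72, while POX07533, POX07536 and POX07537 were not called. POX01895 and POX01894 beside POX01896 were called with 0.60 and 0.83, POX01898 was called with -0.80 and POX01897 was not called. Around Cel45A and Cel7B, POX05573 was called with -1.61, and POX05568, POX05569 and POX05572 were not called. POX06149 was called with -0.28, and POX06148 was not called.

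**Figure D5:**
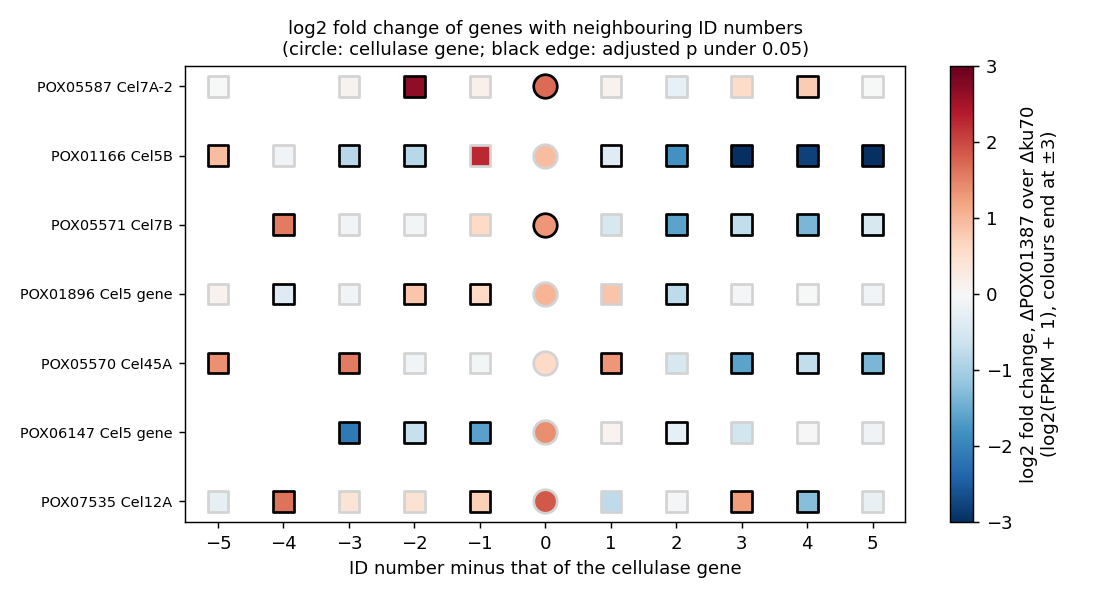
Log2 fold change, ΔPOX01387 over Δku70, of tested genes within 5 ID numbers of each cellulase gene, in colour, with the cellulase gene as a circle at 0 and a black edge where the adjusted p is under 0.05. Cel45A and Cel7B appear as squares in each other's rows, and decreases and increases stand side by side around most of the 7 genes.

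Other transcripts had nearly the same profile as single cellulase genes. For each gene, log2(FPKM + 1) values over the 6 libraries were centred on their mean and compared with those of 7161 other genes that averaged 10 FPKM or more, by the root mean square difference. The profile mixes the difference between strains with the low values of Δku70 replicate 1. The closest gene to Cel12A was POX06599, at a difference of 0.088, and the closest to Cel7A-2 was POX06783, at 0.14. POX06599 had 2502, 2544 and 2766 FPKM in the ΔPOX01387 replicates, against 256, 1408 and 1157 FPKM in the Δku70 replicates. Like Cel12A, it was close between mutant libraries and lowest in Δku70 replicate 1.

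POX08485 was closest to Cel45A, at 0.11, and POX09085 was closest to POX06147, at 0.12. POX08484, numbered next to POX08485, was the closest other gene to both Cel5B, at 0.25, and POX01896, at 0.16. POX06317 was closest to Cel7B, at 0.23. Within the set, Cel5B and POX01896 were each other's closest, at 0.13, and Cel7B and POX06147 were 0.16 apart. For Cel5B, POX01896 and Cel7B, 0 of the 7161 other genes came closer than the closest gene of the set. For the remaining genes some did: 13 for Cel45A, 4 for Cel12A, 2 for Cel7A-2 and 1 for POX06147.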

How the data were processed

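The authors deposited 1 table of FPKM values per library, with a gene ID and a value for each of 9727 genes, per the file headers. Per the labels' protocols, enriched mRNA was fragmented and copied into cDNA with random primers, and libraries were read on a BGISEQ instrument; no step that marks strand is described. RSEM 1.2.12, Bowtie2 2.1.0, BWA 0.7.10-r789 and DESeq2 are listed in the submitters' processing notes without saying what each did. The genome build is not given in the sources used here, nor is the annotation.

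Absolute depth is unknown and no counting intervals are given. For genes at 0 in at least 1 library and above 0 in several, low values were those near the gene's own smallest positive value. Between 57.3% and 71.7% of the low values of a library equalled that smallest value, within 5% plus 0.01 FPKM. Near-identical gene copies or overlapping genes, whose reads the counting could split, were not identified here, so single-gene values carry that uncertainty.

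The 8925 genes averaging 1 FPKM or more (802 were left out) were tested on log2(FPKM + 1) in R 4.3.3 with limma 3.58.1 and an intensity trend, after a check on simulated data. Alternatives were other pseudocounts, filters, scalings and priors, a replicate block, library weights, and leaving out each library. No 2 libraries were identical. None of the 9727 IDs matched the RefSeq table given (assembly ASM172317v3, strain HP7-1), so no name, position or sequence was taken from it. Genes named in the text are the 7 cellulase genes, the deleted gene, the nearest 2 IDs on either side of each cellulase gene, and the closest profile to each. The genes called within 5 IDs of Cel5B are named as well. The genes and lists were chosen with earlier results of these data known.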

Additional observations from a re-analysis of the deposited data

How the results depend on the processing

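Each of the 7 cellulase genes was higher in ΔPOX01387 under all 17 alternatives, and 0 were called lower in any; the lowest log2 fold change was 0.14, for Cel45A with library weights. Cel5B and Cel45A were not called under any alternative, and the deleted gene was called under each of the 16 that tested it. With median-of-ratios scaling 5 genes were called and at least 2-fold higher, among them Cel12A at 2.02, POX06147 at 1.55 and POX01896 at 1.18 on the log2 scale, and the genes called higher in all numbered 2116, against 1366. With quantile normalization Cel7A-2 was no longer called, at 1.21 (limma, adjusted p = 0.0996), and POX01896 was, at 1.03; the cause was not tested. Library weights, chosen after seeing the data, called 4 genes, with Cel12A at 1.301 and POX06147 at 0.91, and raised the genes called higher in all to 1985. Leaving out 1 library moved the number of cellulase genes called to between 0 and 4, and likewise those at least 2-fold higher to between 0 and 4. The share of all genes called at least 2-fold higher was computed for the main fit only, at 3.6%. The counts at 2-fold under the alternatives therefore have no matching share, and the totals of genes called higher given with them are at any fold. It moved Cel7A-2 to between 1.10 and 2.05, Cel7B to between 0.86 and 1.61, Cel12A to between 1.01 and 2.30, and POX06147 to between 0.80 and 1.70; the lowest value of each came without Δku70 replicate 1. Genes called higher in all then numbered between 830 and 1345. Without the 100 most abundant other genes in the denominator the 7 genes took 5.21% of FPKM in ΔPOX01387 and 2.37% in Δku70, against 3.56% in ΔPOX01387 and 1.63% in Δku70 with all genes, which follows from the smaller denominator. The replicate numbers do not pair the libraries by the labels. The correlation of same-numbered libraries, after removing strain means, was 0.088 for number 1, 0.27 for number 2 and 0.54 for number 3. The best match of a library was the one of its own number for all but Δku70 replicate 1. Deviations from a strain mean sum to 0 over its libraries, so these correlations depend on each other and cannot decide whether libraries were paired. With the replicate block 5 genes were called and at least 2-fold higher, Cel12A at 1.85, POX06147 at 1.39 and POX01896 at 1.01 joining; in all, 1534 genes were then called higher. No count model was planned or run, because the values are FPKM.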
